A study of Homo sapiens with 42 samples.

Results

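CFB, the gene of complement factor B, was followed in Hep3B cells, a human hepatoma line, through 3 array probes that name CFB alone in the array annotation. These are probes 2983, 7389 and 10579 of the 13824 probes on each array, and CFB is 1 of 5631 genes that probes name alone. The gene was chosen by earlier results of the same arrays, because probe 2983 was the probe with a called change in CM against NCM at 16 h (limma with pairs as a term, 1 of 13824 probes called higher, 0.00723%, and 0% lower). Without the pair term, 0 probes were called at 16 h. All CM against NCM values of CFB are therefore given as a description with no test. The 42 arrays form 14 groups of 3: CM, which per the labels carries a surplus of pro-inflammatory cytokines, and its control medium NCM, each sampled at T0 and after 15 min, 30 min, 1 h, 3 h, 6 h and finally 16 h. At each time 3 independent experiments gave 1 pair each, a CM and an NCM culture seeded from the same trypsinized cells. Whether an experiment number stands for the same cells at different times is not given. The labels name no single cytokine, no concentration and no source of CM, and all cultures are of 1 cell line.

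Factor B is the zymogen of a serine protease. It binds to C3b and is then cut by factor D, and the Bb fragment left on C3b forms the C3 convertase of the alternative pathway of complement, the amplification loop that deposits more C3b. The liver makes most of the factor B in plasma, and hepatocytes and hepatoma lines are known to raise it as an acute phase protein in response to interleukin-1, interleukin-6, tumour necrosis factor and interferon gamma. In the RefSeq gene table of GRCh38.p14, CFB lies on chromosome 6 in the MHC class III region, with C2, its paralogue of the classical pathway, close upstream.

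The promoter window of CFB from RefSeq is shown because the known inducers of the gene act through factors that bind near its start site. It covers chr6:31945845-31946144 on the plus strand of GRCh38.p14, 250 bases before to 50 after the start of the gene, and capitals mark the matches found on either strand to the motifs searched.
CFB promoter: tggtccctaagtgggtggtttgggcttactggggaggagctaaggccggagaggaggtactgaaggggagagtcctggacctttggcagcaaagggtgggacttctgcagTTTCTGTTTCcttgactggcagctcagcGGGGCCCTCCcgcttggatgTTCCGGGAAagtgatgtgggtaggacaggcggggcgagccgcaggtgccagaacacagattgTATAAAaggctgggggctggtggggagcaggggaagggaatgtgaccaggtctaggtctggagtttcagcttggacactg

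Counted from the start site, the first block of capitals, at -140, is a match on the minus strand to GAAANNGAAA, the core of the interferon-stimulated response element. The block at -112 matches the NF-kappaB consensus, the block at -92 matches TTCNNNGAA, the gamma activated site bound by STAT factors, on both strands, and the block at -30 is the TATA box, TATAAA. No match to the C/EBP consensus TTNNGNAA was in the window. Of 35116 promoter windows of the same length, 3.57% held the interferon-stimulated core, 11.3% the NF-kappaB consensus, 7.66% the gamma activated site, 11.5% the TATA box and 36.8% the C/EBP consensus. The matches overlap none of each other. They describe the letters of the window and are not measured sites of binding. In the window of C2 none of these motifs was matched.

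The deposited values are linear intensities with a mean near 1 on every array. They were quantile normalized and taken to log2 here, and levels below are log2 normalized intensities unless called deposited. A level is not comparable between probes. Probe 2983 was the brightest of the 3, with a median level of -0.67 over the 42 arrays, a lowest of -2.16 and a highest of 0.70. Its deposited value was above the median of its array on 32 of 42 arrays. Probe 7389 had a median of -1.42 and a range of -2.07 to -0.60, and was above the median of its array on 5 of 42 arrays. Probe 10579 had a median of -1.13 and a range of -1.89 to 0.52, and was above the array median on 13 of 42. No detection call comes with the values, so the share of these signals that is background is unknown. No CFB value was at or below the floor set on low values, and none of the 3 probes shared its values with another probe.

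At 16 h probe 2983 was higher in CM in 3 of 3 pairs, with the widest separation of any time. Its levels were 0.22, 0.70 and -0.32 in CM, against -0.55, -1.11 and -2.16 in NCM, in the order of the 3 experiments. The ranges do not overlap, the lowest CM culture lying above the highest NCM culture. In RNA from whole cultures, more cells that express a gene and more RNA per cell cannot be told apart. The mean was 0.20 ± 0.51 in CM and -1.27 ± 0.82 in NCM (SD, n = 3 each), and the pair differences were 0.77, 1.80 and 1.84, with a mean of 1.47 ± 0.61 (SD, n = 3 pairs), or 2.77-fold. CM at 16 h in experiment 2 was the highest of the 42 arrays, and NCM at 16 h in experiment 3 was the lowest. Against T0 of the same medium, the mean at 16 h was 0.46 above in CM and -0.60, that is lower, in NCM. Both shifts were smaller than the SD of that medium at 16 h, and not every experiment number showed them. CM under number 3 was at 0.19 at T0 and -0.32 at 16 h, and NCM under number 1 at -0.58 and -0.55. Whether 1 number stands for the same cells at both times is unknown.

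The deposited values of probe 2983 at 16 h were 1.08, 1.67 and 0.660 in CM, against 0.602, 0.659 and 0.228 in NCM. The ratios within pairs were 1.79, 2.54 and 2.90. On the deposited scale the CM culture of experiment 3 and the NCM culture of experiment 2 were alike, and the ranges almost touched. By its place among the probes of the same array, which no scaling changes, probe 2983 was at the percentiles 78.2, 83.6 and 69.7 in CM, against 64.3, 42.4 and 9.0 in NCM. It thus stood higher among the probes of its array in each CM culture than in any NCM culture.

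At 6 h probe 2983 had levels of -0.23, -0.73 and -0.61 in CM, against -0.90, -1.26 and -1.90 in NCM. The ranges again do not overlap, and the pair differences of 0.68, 0.53 and 1.29 gave a mean of 0.83 ± 0.41 (SD, n = 3 pairs). Here the CM mean, -0.52 ± 0.26, was below that of CM at T0, and the separation lay in the NCM cultures, which averaged -1.36 ± 0.51. The NCM culture of experiment 3 was the lowest at both 6 h and 16 h. In the deposited values at 6 h the ratios within pairs were 1.32, 1.16 and 2.08, and the ranges met, with 0.572 in both the lowest CM and the highest NCM culture. The change at 6 h minus that at T0 was 0.42.

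From 15 min to 3 h the media overlapped at every time. At 15 min the levels of probe 2983 were -0.66, -1.21 and -0.71 in CM, against -0.79, -0.86 and -0.55 in NCM, with a mean difference of -0.13 ± 0.24. At 30 min they were -0.60, -1.36 and -0.72 in CM, against -0.65, -1.45 and -1.01 in NCM, with 0.14 ± 0.12. At 30 min the experiments differed from each other by more than the media did. At 1 h the levels were -0.43, -1.05 and -0.84 in CM, against -0.41, -0.95 and -0.64 in NCM, with a mean difference of -0.11 ± 0.09 and CM lower in 3 of 3 pairs. At 3 h they were -0.73, -0.59 and -0.75 in CM, against -0.56, -0.61 and -0.47 in NCM, with -0.14 ± 0.15 (SD, n = 3 pairs at each time). These 6 cultures at 3 h were the tightest of the course.

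At T0 the pairs already differed. Probe 2983 had levels of -0.57, -0.42 and 0.19 in CM, against -0.58, -0.76 and -0.69 in NCM. The ranges do not overlap, by a margin of 0.0091 between the cultures of experiment 1, and the mean difference was 0.41 ± 0.44 (SD, n = 3 pairs). The CM culture of experiment 3 stood above the 5 others, and without that experiment the mean difference was 0.18. In the deposited values the ratios were 0.778, 1.02 and 1.83, so the direction in experiment 1 rested on the normalization. The change at 16 h minus that at T0 was 1.06.

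**Figure D1:**
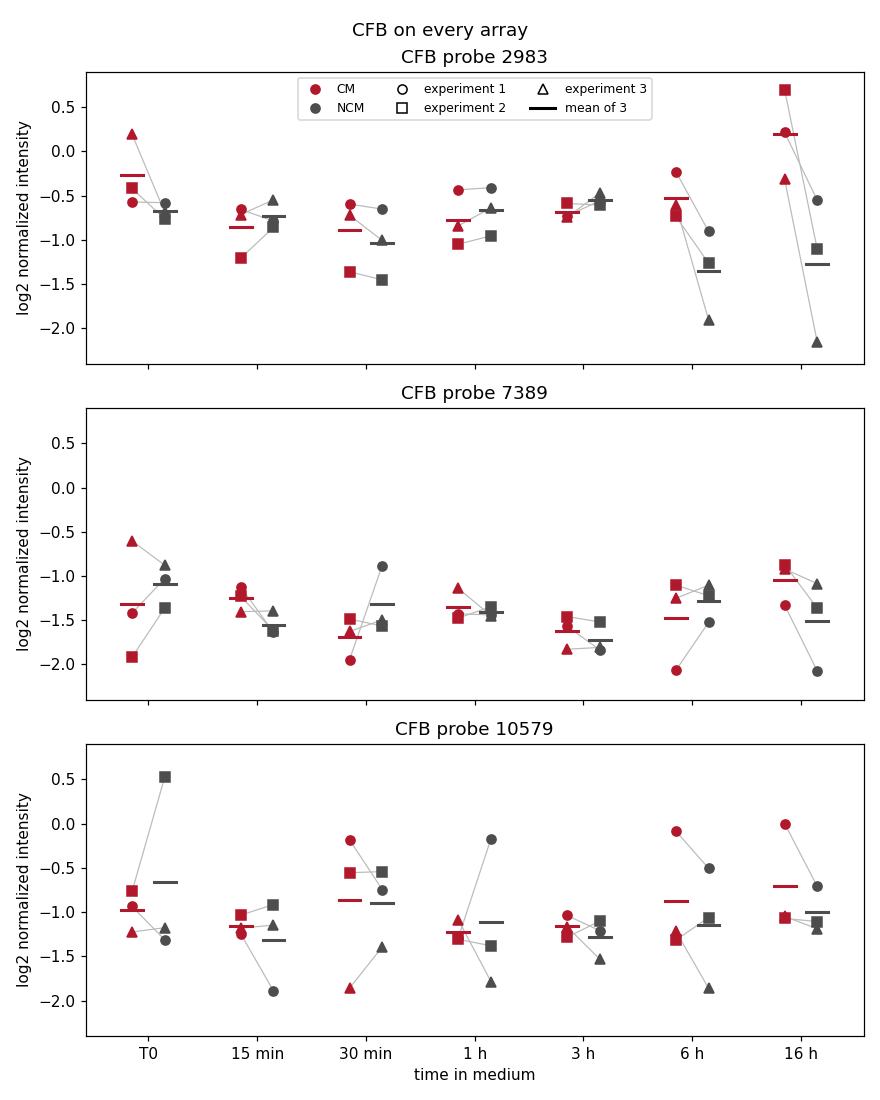
Log2 normalized intensity of the 3 CFB probes (panels) on all 42 arrays, by time in medium, with CM in red left of NCM in grey. Symbols are the 3 experiments, grey lines join the cultures of a pair and bars are means of 3. On probe 2983 the ranges of the media do not overlap at T0, by 0.0091, and at 6 h and 16 h, with the lowest value, -2.16, in NCM at 16 h, and the other probes show wide overlap.

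The second probe, 7389, showed a smaller difference at 16 h and, in the normalized levels, none of one direction before it. At 16 h its levels were -1.33, -0.87 and -0.92 in CM, against -2.07, -1.37 and -1.09 in NCM. CM was higher in 3 of 3 pairs, by 0.74, 0.49 and 0.17, a mean of 0.47 ± 0.29 (SD, n = 3 pairs), while the ranges overlapped. At 6 h its levels were -2.07, -1.10 and -1.25 in CM, against -1.53, -1.22 and -1.10 in NCM, with a mean difference of -0.19 ± 0.33. In the deposited values at 6 h the ratios within pairs were 0.816, 0.763 and 0.808, so CM was lower in each pair. Its mean difference was -0.22 ± 0.44 at T0, 0.30 ± 0.27 at 15 min, -0.37 ± 0.61 at 30 min, 0.06 ± 0.22 at 1 h and 0.10 ± 0.15 at 3 h. The separation that probe 2983 showed at 6 h was not seen on probe 7389. At 16 h the mean was 0.28 once each value was centred on the probes beside it, an alternative chosen after seeing the data.

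The third probe, 10579, varied most between pairs of the same time, with an SD of 0.48 in the pair means. At 16 h its levels were 0.00, -1.07 and -1.05 in CM, against -0.71, -1.11 and -1.19 in NCM. CM was higher in 3 of 3 pairs, by 0.71, 0.04 and 0.14, a mean of 0.30 ± 0.36 (SD, n = 3 pairs). Without experiment 1 the mean was 0.087. In the deposited values the ratio of the pair of experiment 2 was 0.747, below 1, against 1.72 and 1.03 in the other pairs. At 6 h the levels were -0.09, -1.32 and -1.22 in CM, against -0.50, -1.06 and -1.86 in NCM, with a mean difference of 0.27 ± 0.47. At T0 the mean difference was -0.32 ± 0.87, with a level of 0.52 in the NCM culture of experiment 2, the highest of this probe on any array. From 15 min to 3 h the mean differences lay between -0.12 and 0.16, with SDs between 0.28 and 0.92.

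Counted over probes and pairs, CFB was higher in CM in 9 of 9 probe and pair combinations at 16 h, 6 of 9 at 6 h and 4 or 5 of 9 at each earlier time. At 16 h 3 of 3 CFB probes were higher in 3 of 3 pairs, against 13.3% of all probes, and 1 of 3 had CM and NCM ranges that did not overlap with CM above, against 2.48%. At 6 h these counts were 1 of 3, against 13.3%, and 1 of 3, against 2.08%, and at T0 they were 1 of 3, against 9.47%, and 1 of 3, against 1.19%. At 30 min 1 of 3 probes was higher in 3 of 3 pairs, against 8.8% of all probes. At 15 min, 1 h and 3 h the count was 0 of 3, against 11.9%, 15.6% and 14.6%, and at 1 h 1 of 3 was lower in 3 of 3 pairs, against 12.8%. The gene was chosen on this contrast, so nothing is read from these counts. The mean of the 3 probes gave pair differences of 0.74, 0.78 and 0.72 at 16 h, a mean of 0.74 ± 0.03 (SD, n = 3 pairs), or 1.68-fold, with -0.52 ± 0.21 in CM and -1.26 ± 0.19 in NCM. The pair that was smallest on probe 2983, that of experiment 1, was the largest on both other probes, so the pairs were nearly equal in the mean. The mean of the probes had a difference of 0.30 ± 0.25 at 6 h, with pairs at 0.18, 0.13 and 0.60, and -0.04 ± 0.44 at T0.

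**Figure D2:**
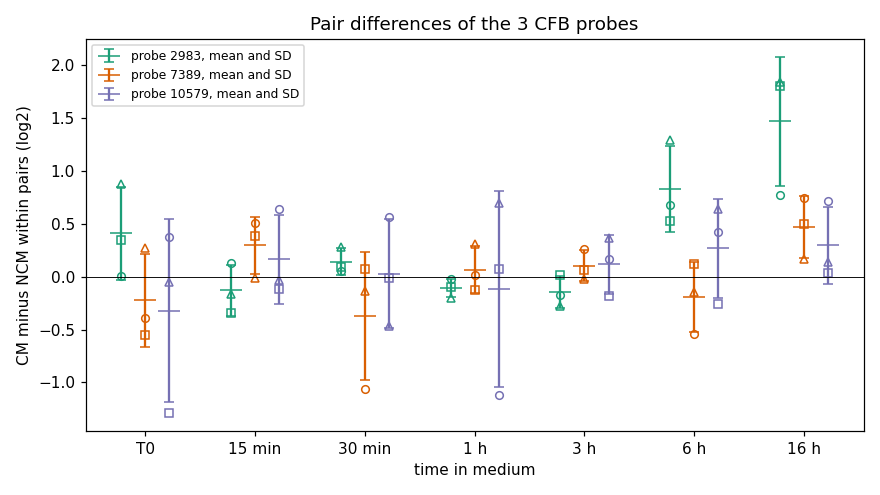
CM minus NCM within pairs on the log2 scale for the 3 CFB probes at each time. Open symbols are the pairs of experiment 1 (circle), 2 (square) and 3 (triangle), and bars are the mean and SD of 3 pairs. At 16 h all 9 symbols lie above 0, with means of 1.47, 0.47 and 0.30.

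The 3 probes did not follow each other from culture to culture. Over the 21 pair differences, Pearson's r was 0.17 between probes 2983 and 7389, 0.10 between 2983 and 10579 and 0.16 between 7389 and 10579. Over the levels on 42 arrays it was 0.04, 0.20 and -0.20. Arrays, pairs and normalization are shared by the probes, and the values are a description. Of all 13824 probes, 3265 had pair differences closer to those of probe 2983 than probe 7389 had, and 4743 closer than probe 10579 had. Ordered from the most positive to the most negative mean difference at 16 h, probe 2983 ranked 2, probe 7389 ranked 728 and probe 10579 ranked 2033 of 13824. The gene was chosen on this contrast, so the ranks are a description too.

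**Figure D3:**
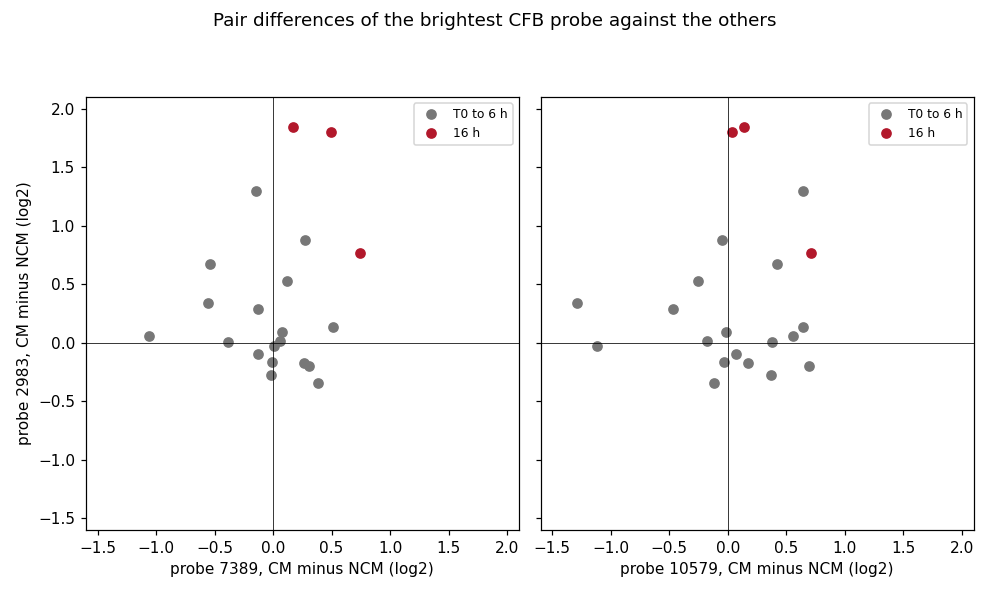
Pair differences (CM minus NCM, log2) of probe 2983 on the vertical axis against probe 7389 (left) and probe 10579 (right), 21 pairs each, with the 3 pairs of 16 h in red. The points form no line, with r of 0.17 and 0.10, and the red points lie right of 0 in both panels.

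Set in order, the 14 group means of probe 2983 had CM at 16 h highest (0.20), followed by CM at T0 (-0.27), CM at 6 h (-0.52) and NCM at 3 h (-0.54). NCM at 30 min (-1.04), NCM at 16 h (-1.27) and NCM at 6 h (-1.36) were lowest, and the 7 other groups lay between -0.67 and -0.89. No neighbours in this order differed by more than the larger of their 2 SDs, in 0 of 13 steps. The same held for 0 of 13 steps of probe 7389 and 0 of 13 of probe 10579. The range of the group means was 1.55 on probe 2983, 0.68 on probe 7389 and 0.66 on probe 10579.

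Whether the level of CFB moved with time in both media together was tested on the mean of the CM and NCM culture of each pair. The choice of the gene did not use this measure. Shifts of CM and NCM in opposite directions cancel in it, so the test cannot show them. On probe 2983 the mean at 16 h was 0.46 above T0 in CM and -0.60, that is lower, in NCM. Probe 2983 had pair means between -0.96 ± 0.40 at 30 min and -0.47 ± 0.19 at T0, with -0.94 ± 0.35 at 6 h and -0.54 ± 0.61 at 16 h (SD, n = 3 pairs each). The range over the 7 times, 0.49, compares with an SD of 0.34 within a time. The F test of limma over the 7 times gave an unadjusted p of 0.497 and an adjusted p = 1.00 for probe 2983, 0.570 and 1.00 for probe 7389, and 0.817 and 1.00 for probe 10579. It called 4 of 13824 probes, 0.0289%, and none of CFB. On probes 7389 and 10579 the pair mean was also highest at T0, and the ranges over times were 0.47 and 0.42.

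Of 13 further genes of the alternative pathway, 3 were measured by probes of their own. None passed the test in either direction at any of the 7 times (limma, adjusted over all probes, 0% of probes called in either direction at every time but 16 h). At an unadjusted p under 0.05 there were 0 of the 3 genes at every time, beside 3.26% to 5.06% of all probes. With 3 genes, nothing is read from this count. At 16 h C3, the protein whose fragment factor B binds, had -0.21 on its brightest probe (higher in 1 of 3 pairs, SE 0.30, adjusted p = 0.957) and 0.85 on the other, higher in 2 of 3 pairs. The probes of C3 thus disagreed in sign, and at 6 h they had 0.02 and 0.73. CFI, the protease that inactivates C3b, had 0.21 (SE 0.24, adjusted p = 0.950) with -0.15 on its other probe. CD46, a membrane cofactor of CFI, had -0.19 (SE 0.31, adjusted p = 0.964), but -0.78 in the values as deposited and -0.69 with median centring. Without experiment 1, C3 had -0.35, CFI 0.015 and CD46 0.0099, without experiment 2 CFI had 0.45, and without experiment 3 C3 had -0.097 and CD46 -0.44. The median of the 3 genes was -0.19 at 16 h and -0.33 at 6 h, beside medians of 0.02 and -0.02 over the brightest probes of all 5631 genes. The median at 16 h had no stable sign: it was 0.0099 without experiment 1, 0.032 with the mean of each gene's probes and 0.0029 without the dimmest 25% of probes, which leaves out CD46.

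Of 30 genes of the classical, lectin and terminal pathways, 21 were measured and 0 passed in either direction at any time, with at most 2 genes at an unadjusted p under 0.05, at 1 h, and 0 at 16 h, beside 4.38% and 4.76% of all probes. C8A and C8B, chains of the terminal complex, had identical deposited values at 30 min and 1 h, as did C4BPB and a probe of C4BPA at 15 min, so these genes are not separate measurements there. Such copies were held by 4 to 14 of 13824 probes at a time, and by no brightest probe of a listed gene at 6 h or 16 h. Their median at 16 h was 0.10, with 16 of 21 above 0, beside 53.0% of all 5631 genes, and 1 of 21 higher in 3 of 3 pairs, beside 14.6%. With neighbour centring the median was 0.031. The 3 largest changes at 16 h were those of MBL2, the mannose-binding lectin, at -0.47 (SE 0.40), C1QB, a chain of the recognition molecule of the classical pathway, at 0.34 (SE 0.28), and C4BPA, the C4b-binding inhibitor, at 0.29 (SE 0.34), with adjusted p = 0.942, 0.942 and 0.950 by limma. In MBL2 and C4BPA the other probes ranged from 0.01 to 0.10 and from -0.0031 to 0.71, so single probes disagreed there as well. MBL2 had -0.19 without experiment 1, -0.75 without experiment 3 and -0.80 as deposited. C1QB had 0.15 without experiment 1 and 0.58 without experiment 3, and C4BPA 0.46 without experiment 1 and 0.10 without experiment 2.

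The genes that lie beside CFB on chromosome 6 gave 6 measured genes of 17 listed, and 0 passed in either direction at any time, with 1 at an unadjusted p under 0.05 at 15 min, 1 at 30 min and 0 at 16 h, beside 3.56%, 3.51% and 4.76% of all probes. C2, the nearest measured gene, had 0.23 at 16 h, with 2 of 3 pairs higher (SE 0.27, adjusted p = 0.950), and 0.29 at 6 h, with 3 of 3 higher (SE 0.27, adjusted p = 0.999). Its levels at 16 h averaged -0.08 ± 0.94 in CM and -0.30 ± 0.57 in NCM (SD, n = 3 each), and the pair differences were 0.39, 0.53 and -0.24, with means of 0.15 without experiment 1, 0.076 without experiment 2 and 0.46 without experiment 3. On the other side of CFB, DXO, an RNA decapping enzyme, had 0.09 (SE 0.25) and WHR1, listed here under its older symbol STK19, had 0.34 (SE 0.25, higher in 3 of 3 pairs), or 0.15 without experiment 2. Farther off, VARS1, a valyl-tRNA synthetase, had -0.06 (SE 0.26), HSPA1A 0.43 (SE 0.28) and HSPA1B -0.13 (SE 0.33), with adjusted p from 0.942 to 0.982. HSPA1A and HSPA1B encode near-identical heat shock proteins, so their probes may share signal. HSPA1A had 0.27 without experiment 1 and 0.72 without experiment 3. The median of the 6 genes was 0.16 at 16 h and 0.20 at 6 h. At 16 h it was 0.044 as deposited, 0.036 with neighbour centring, 0.067 without experiment 2 and 0.30 without experiment 3.

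The last list held cytokine receptors and transcription factors of the acute phase, not all of them on known routes of the inducers named above. It gave 17 measured genes of 31, and 0 passed in either direction at any time. Their median was -0.12 at 16 h, 0.09 at 6 h, 0.12 at 3 h and 0.14 at 1 h, with 8, 9, 10 and 13 of 17 genes above 0, beside 53.0%, 47.3%, 49.9% and 49.4% of all genes. At an unadjusted p under 0.05 there were 1, 1, 4 and 5 of these genes at the same times, beside 4.76%, 3.76%, 3.26% and 4.38% of all probes. Among them was NFKB1, a subunit of NF-kappaB, at 3 h, with 1.22 on its brightest probe (SE 0.25, limma adjusted p = 0.462). It was higher in 3 of 3 pairs there, and the mean of its 3 probes was 0.52. The median at 16 h had no stable sign either: it was 0.094 with neighbour centring, 0.041 with the mean of each gene's probes and 0.0084 without experiment 2, and -0.014 with median centring and -0.030 without experiment 3. At 16 h IL1RAP, the accessory protein of the interleukin-1 receptor, had the largest change, 0.73 (SE 0.22, unadjusted p = 0.00369, limma adjusted p = 0.942). It was higher in 3 of 3 pairs, by 0.31, 1.21 and 0.68. IRF9, the DNA-binding subunit of the interferon-activated complex that recognizes the interferon-stimulated response element, had 0.52 (SE 0.29), higher in 3 of 3 pairs by 0.67, 0.43 and 0.45. IFNAR1, a chain of the type I interferon receptor, had -0.33 (SE 0.18) and -0.54 on its other probe, each lower in 3 of 3 pairs. Neither passed, each with adjusted p = 0.942 by limma. As deposited IRF9 had 0.26 and IFNAR1 -0.22, and with neighbour centring IFNAR1 had -0.083.

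**Figure D4:**
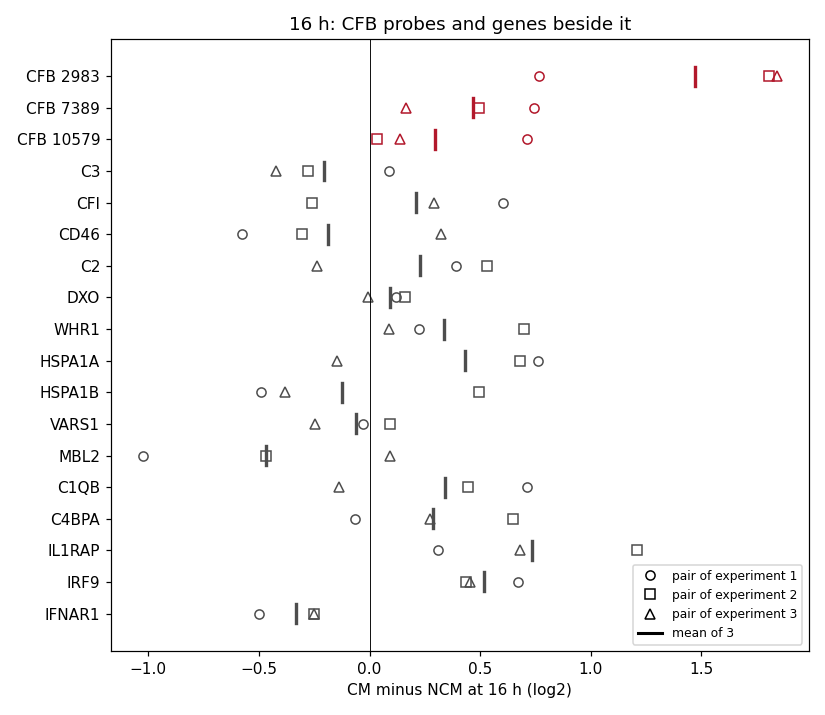
CM minus NCM at 16 h on the log2 scale for the 3 CFB probes (red) and the 15 other genes of the lists named at 16 h (grey, brightest probe of each). Symbols are the 3 pairs and bars their means. CFB probe 2983 has the highest mean, 1.47, followed by IL1RAP at 0.73.

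The genes whose brightest probes had the 21 pair differences most like those of CFB probe 2983, among 5630 genes, were GGA2, a Golgi-associated clathrin adaptor (Pearson's r 0.80), PSMC3, an ATPase subunit of the proteasome (0.70), SLC22A25, a member of the organic anion transporter family (0.70), TNRC6B, a protein of microRNA-mediated silencing (0.70), and LATS2, a kinase of the Hippo pathway (0.70). Without the 3 pairs of 16 h the values were 0.70, 0.32, 0.53, 0.57 and 0.69 over 18 pairs. At 16 h their own changes were 0.32, 0.91, 0.19, 0.64 and 0.25. CM was higher in 3 of 3 pairs except for SLC22A25 with 2 of 3, beside 14.6% of all genes with 3 of 3. They were picked as the most alike of many genes on the same arrays, with the pairs of 16 h among the 21. Both r and their changes at 16 h are therefore a description, and nothing is read from the direction.

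Of 15 marker genes of hepatocytes, 14 were measured, and 10 of them were in the brightest 25% of probes on most arrays, ALB, AFP, APOA1 and SERPINA1 among them. Of markers of other cell types, 0 of 4 measured leukocyte genes, 0 of 4 endothelial genes and 1 of 5 fibroblast genes, DCN, were so. No measured marker was listed at 0 on all arrays. At 16 h the summed normalized intensity of the leukocyte markers ranged from 1.62 to 2.78 in CM and from 1.77 to 2.61 in NCM. That of the endothelial markers was 1.23 to 1.40 in CM and 1.44 to 1.69 in NCM, without overlap. Among all probes at 16 h, 2.48% had ranges apart with CM above NCM, and the share with CM below was not counted. Nothing is therefore read from that separation. The sum of the fibroblast markers was 3.02 to 4.51 in CM and 2.80 to 3.37 in NCM. The array medians of the deposited values at 16 h ranged from 0.417 to 0.579 in CM and from 0.440 to 0.731 in NCM. The part of these differences in the values of CFB was not tested.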

How the data were processed

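The deposited values are linear intensities, 1 per probe and array, and for the array type, background correction and scaling by the authors the details were not given in the sources used here. Array means lay between 0.999 and 1.00 and array medians between 0.354 and 0.807. Values were quantile normalized on the linear scale, floored at the common 1st percentile (0.0813) and taken to log2. Probes took genes from the array annotation, and symbols were checked by Entrez ID against GRCh38.p14 (7322 of 7336 probes with 1 gene matched). limma 3.58.1 in R 4.3.3 was fitted to all 13824 probes with pair terms and a separate CM effect at each time, and to pair means for the difference between times, with Benjamini-Hochberg adjustment over all probes and a threshold of 0.05. A gene was represented by its brightest probe. Plots used matplotlib 3.10.9.

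The pairs come from the labels. Deviations of their 2 arrays from the group means correlated at 0.308 to 0.754, in 21 of 21 pairs over 0.1. Whether an experiment number stands for the same cells at different times is not said in the labels. The gene, the 4 lists, the motifs and the alternatives were chosen with earlier results of these data known. The rule for named genes took the CFB probes, all measured alternative pathway genes and genes beside CFB, each gene past the threshold, the 3 largest changes at 16 h of the other lists and the 5 genes most like CFB. NFKB1 at 3 h was named outside this rule. STK19 was updated to WHR1. The steps were tested on simulated data. Alternatives were values as deposited, median centring, a floor at the 10th percentile, no pair block, experiment as a block, leaving out the dimmest 25% of probes, the mean of a gene's probes, the change minus that at T0 and leaving out each replicate. Neighbour centring, which reads probe numbers as 36 grids of 16 by 24 places, was added after seeing the data. Precision is limited by the 3 pairs at each time.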

Additional observations from a re-analysis of the deposited data

Results flagged for a closer look

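On probe 2983 the difference between CM and NCM was negative in all 3 pairs at 1 h and positive in all 3 pairs at T0, 30 min, 6 h and 16 h, which set these times apart. The mean difference at 1 h was exceeded by 0.518 at T0, 0.25 at 30 min, 0.939 at 6 h and 1.58 at 16 h on the log2 scale. These differences between times were not tested. The 3 pair differences at 1 h, -0.02, -0.09 and -0.20, and those at 30 min, 0.06, 0.09 and 0.28, were small beside the SD of 0.64 over all 21 pairs. In the deposited values the ratio of experiment 1 was below 1 at T0 and at 30 min, 0.778 and 0.887.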

How the results depend on the processing

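The gene was chosen on the contrast at 16 h, where every pair difference of the 3 CFB probes was above 0. Means without a replicate and the mean of the probes thus could not fall below 0. With these included, all 28 alternative values of the 3 CFB probes at 16 h were above 0. On probe 2983 they ran from 0.74, the mean of the 3 probes, which moved by more than the SD of the pairs, to 1.82 without replicate 1, against 1.47 as reported. Without replicate 2 or 3 it was 1.30 and 1.29, and 1.24 with the values as deposited. On probe 7389 they ran from 0.28 to 0.69 and on probe 10579 from 0.087, without replicate 1, to 0.62. The difference of group means with no replicate block, 1.47, equals the mean of the pair differences by arithmetic and is no separate check. For the pair means over time, the adjusted p of the 3 probes was 1.00 in each fit or close to it (0.9998 to 1.00), with experiment as a replicate block among them. At 6 h probe 2983 had 0.42 after the change at T0 was taken off and 0.30 as the mean of the 3 probes, against 0.83. The lists had 0 calls at each time in all 70 alternatives. Among the other genes at 16 h the sign turned for 6, none past the threshold: C3 (0.32 with the mean of its probes), CFI (-0.00074 as deposited, -0.038 with neighbour centring), CD46 (-0.44 to 0.0099 without a replicate), DXO (-0.075 as deposited, -0.038 with neighbour centring), HSPA1B (0.026 with median centring, -0.44 to 0.055 without a replicate) and VARS1 (0.066 with the mean of its probes, -0.14 to 0.033 without a replicate). At 16 h the medians of the alternative pathway and of the receptors and factors also turned sign, to 0.032 and 0.094 at most. The causes were not tested.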
